A study of Sus scrofa with 16 samples.

Results

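Accessible chromatin regions (ACRs) that newborn pig liver shared with newborn spleen, and that adult liver still held, are described here. A region was chosen by presence in peak lists: a consensus peak of newborn liver on chromosomes 1 to 18 that overlapped a newborn spleen peak and an adult liver peak by 1 bp or more and overlapped no peak of newborn heart, kidney, lung or skeletal muscle. Of 115504 newborn liver peaks, 3357 met the rule (2.91%). These are called the kept liver-spleen regions. Their presence in liver, spleen and adult liver, and their absence from the other lists, is fixed by that choice and is no finding.

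The series held 16 ATAC-seq libraries of untreated female crossbred domestic pigs, with 2 libraries in each of 8 groups. Heart, kidney, liver, lung, muscle and spleen were taken from newborns (day 0 in the labels, an age of 1 day in the methods), and liver also at day 28 (suckling) and day 180 (adult). By the study's methods the pigs were full-sib Berkshire by Tibetan hybrids, 2 at each age, and the newborn pair gave every newborn tissue. Newborn liver and spleen therefore came from the same animals, whereas age, pair of pigs and processing cannot be told apart between newborn, suckling and adult liver. ATAC-seq cuts open DNA with a transposase, and each deposited list merged the peaks of both replicates, with a −log10 p for each replicate and a score for their reproducibility. A list therefore has no replicate error for presence, and no test over samples was made. Intervals are 95% Wilson intervals for shares and Newcombe intervals for differences, in percentage points, and they cover counting error only. Neighbouring peaks are not independent, and counts of autosomes with 1 direction are given as descriptions.

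Fetal and newborn mammalian liver is a blood-forming organ, and after birth blood formation moves to the bone marrow while the liver becomes a metabolic organ. Liver and spleen both keep resident macrophages, which take up aged red cells and recycle their iron, and both hold lymphocytes. Liver also has a sinusoidal endothelium with scavenger receptors. The transcription factor PU.1, the product of SPI1, is required for myeloid cells and binds a purine-rich ETS site, often beside sites for CEBP, RUNX and IRF factors, whereas GATA factors act with TAL1 and KLF factors in red cell precursors and HNF4, HNF1 and FOX factors act in hepatocytes. Tissue was sampled in bulk, so fewer cells of a type and less accessibility per cell cannot be told apart.

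3 other classes of newborn liver peak were used for comparison, none of which shares a peak with the kept liver-spleen regions. The lost liver-spleen regions (3492) met the same newborn rule but overlapped no adult liver peak. The liver-kidney regions (7208) had kidney in the place of spleen and an adult liver peak. The liver-only regions (17519) had an adult liver peak and no overlap with any other newborn list.

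The tissue labels were checked against the promoters of marker genes. A promoter peak was present at 12 of 14 hepatocyte genes in newborn liver, 13 of 14 in adult liver and 2 of 14 in spleen. Promoters of pan-leukocyte genes carried a peak at 17 of 17 in newborn liver, spleen, suckling liver and adult liver. For T and NK cell genes the counts were 7 of 11 in newborn liver and 10 of 11 in spleen, suckling liver and adult liver, and for erythroid genes 15 of 18 in newborn liver, 15 in spleen, 11 in suckling liver and 9 in adult liver. In kidney, lung, heart and muscle the pan-leukocyte counts were 16, 14, 11 and 4 of 17. In the same order T and NK cell genes had 6, 4, 3 and 3 of 11, and erythroid genes 10, 9, 8 and 5 of 18. The blood cell lists thus did not set liver and spleen clearly apart from kidney. The part of a change in blood cell content in the results below was not tested. The lists held 57126 to 141689 peaks, and the share at an irreproducible discovery rate (IDR) of 0.05 or lower ran from 19.2% in newborn liver to 50.4% in adult liver. They carry no read depth.

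Sequences of 201 bp around the newborn liver summit (Sscrofa11.1, plus strand) are shown for the strongest kept liver-spleen region linked to a gene of 5 lists, to let the motifs be read beside the values that follow. Capitals mark matches on either strand to the SPI1 consensus GAGGAAGT, FOX:ETS AACAGGAA, RUNX TGTGGTTT, CEBP TTGCNNAA, the letters AGATAA for GATA factors, the MAF half-site TGCTGAC, or the paired IRF element. The regions were linked to MS4A7 (macrophage list, chr2:11306136-11306336), TFRC (heme and iron, chr13:134004296-134004496), FCGR2B (sinusoidal endothelium, chr4:88908837-88909037), CD53 (pan-leukocyte, chr4:109332744-109332944) and CD86 (pattern recognition, chr13:138504160-138504360).
MS4A7: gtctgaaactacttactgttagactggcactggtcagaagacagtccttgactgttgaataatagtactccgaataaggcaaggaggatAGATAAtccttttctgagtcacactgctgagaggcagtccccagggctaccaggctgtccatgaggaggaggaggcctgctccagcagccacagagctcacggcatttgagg
TFRC: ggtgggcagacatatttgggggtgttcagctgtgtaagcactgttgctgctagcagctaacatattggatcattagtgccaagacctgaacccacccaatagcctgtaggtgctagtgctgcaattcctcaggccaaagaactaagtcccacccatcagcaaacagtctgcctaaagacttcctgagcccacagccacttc
FCGR2B: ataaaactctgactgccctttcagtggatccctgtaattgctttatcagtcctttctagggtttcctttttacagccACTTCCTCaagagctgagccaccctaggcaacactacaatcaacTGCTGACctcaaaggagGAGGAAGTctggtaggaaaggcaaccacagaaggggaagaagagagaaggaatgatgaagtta
CD53: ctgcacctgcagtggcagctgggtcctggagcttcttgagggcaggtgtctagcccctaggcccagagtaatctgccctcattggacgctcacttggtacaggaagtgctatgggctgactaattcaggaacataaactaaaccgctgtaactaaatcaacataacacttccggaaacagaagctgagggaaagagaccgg
CD86: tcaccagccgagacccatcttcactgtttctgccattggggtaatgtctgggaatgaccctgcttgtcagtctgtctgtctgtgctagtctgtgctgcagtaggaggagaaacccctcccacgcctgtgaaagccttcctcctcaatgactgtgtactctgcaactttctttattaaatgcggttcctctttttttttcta
The FCGR2B window held 2 SPI1 matches on opposite strands with a MAF half-site between them, and the MS4A7 window held a GATA match. No match says only that those letters are not in the window.

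One of the strongest 2 of all kept regions, by the smaller −log10 p of the newborn liver replicates, lay in an intron of SPRED2, an inhibitor of Ras signalling (chr3:76575965-76576165).
SPRED2: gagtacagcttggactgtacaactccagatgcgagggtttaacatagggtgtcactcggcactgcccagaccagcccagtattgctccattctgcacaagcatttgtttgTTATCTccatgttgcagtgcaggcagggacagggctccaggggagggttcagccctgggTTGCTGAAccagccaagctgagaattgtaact
The SPRED2 region had −log10 p values of 156 and 87.6 in newborn liver, 5.12 and 15.0 in spleen, and 85.1 and 131 in adult liver. It was thus far higher in newborn and adult liver than most kept regions and low in spleen replicate 1.

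The SPI1 consensus was present in 9 kept regions linked to a gene of any list, 2 of them at housekeeping genes. Outside promoters, 4 of 235 kept regions with the consensus (1.70%, 0.664 to 4.29) were linked to a gene of the immune lists. Without it 39 of 2879 were (1.35%, 0.993 to 1.85), so the intervals overlapped. The region 2.27 kb from the start of ACTB, the beta-actin gene, held 2 matches and had −log10 p values of 51.9 and 6.31 in newborn liver, 7.78 and 20.7 in spleen and 48.3 and 60.8 in adult liver. The region near B2M, which encodes the light chain of MHC class I, had 4.99 and 10.1 in newborn liver, 15.1 and 18.5 in spleen and 4.83 and 12.4 in adult liver. 4 of the 9, at immune genes, are shown for their SPI1 match and were chosen after the motif values were seen: SIGLEC1, a sialic acid receptor of resident macrophages (promoter, chr17:31994471-31994671), LCP2, an adaptor of T cell receptor signalling (promoter, chr16:53697142-53697342), LCP1, the leukocyte actin-bundling protein plastin (intron, chr11:21172266-21172466), and CORO1A, a leukocyte actin regulator (intron, chr3:18339315-18339515).
SIGLEC1: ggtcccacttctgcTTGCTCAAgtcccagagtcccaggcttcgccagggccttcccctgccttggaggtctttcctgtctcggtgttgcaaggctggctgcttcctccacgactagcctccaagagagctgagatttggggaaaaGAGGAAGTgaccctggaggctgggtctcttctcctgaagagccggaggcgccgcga
LCP2: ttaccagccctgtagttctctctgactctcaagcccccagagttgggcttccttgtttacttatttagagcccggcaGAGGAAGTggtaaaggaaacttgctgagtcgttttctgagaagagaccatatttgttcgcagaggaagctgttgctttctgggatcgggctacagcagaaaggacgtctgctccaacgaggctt
LCP1: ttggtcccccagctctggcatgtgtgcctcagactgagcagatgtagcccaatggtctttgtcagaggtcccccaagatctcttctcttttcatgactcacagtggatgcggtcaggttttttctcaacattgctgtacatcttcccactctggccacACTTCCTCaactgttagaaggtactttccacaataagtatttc
CORO1A: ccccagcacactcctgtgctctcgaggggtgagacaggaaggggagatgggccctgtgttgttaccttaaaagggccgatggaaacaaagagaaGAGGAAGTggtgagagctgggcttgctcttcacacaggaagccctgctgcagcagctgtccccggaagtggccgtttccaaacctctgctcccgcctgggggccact
The SIGLEC1 region had −log10 p values of 19.9 and 6.62 in newborn liver, 13.9 and 21.8 in spleen and 14.0 and 15.6 in adult liver. The CORO1A region had 10.8 and 9.08 in newborn liver, 14.9 and 52.2 in spleen and 13.2 and 28.5 in adult liver. Both had spleen values above those of SPRED2 in replicates 1 and 2 and newborn liver values far below it. The ACTB region lay near the spleen medians of all kept regions, 8.44 in replicate 1 and 18.7 in replicate 2. It was higher than the SIGLEC1 and CORO1A regions in newborn liver replicate 1 and in adult liver.

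Genes were then examined. A region was linked to a protein-coding gene (PCG) when it overlapped the promoter (2.2 kb upstream to 500 bp downstream of a start site) or the gene body, and otherwise to the nearest start site within 50 kb. Of 18725 PCGs on these chromosomes, 2183 (11.7%) had a linked kept liver-spleen region, against 2337 (12.5%) for lost regions, 3979 (21.2%) for liver-kidney regions and 6597 (35.2%) for liver-only regions. Of the PCGs with a kept region, 523 had 2 or more and 33 had 4 or more. Gene lists had no gene in common, and 220 of 229 listed genes were matched on chromosomes 1 to 18.

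Resident macrophage genes carried kept regions at 9 of 17 (52.9%), beside 11.7% of all PCGs, and lost regions at 4 of 17, liver-kidney regions at 3 of 17 and liver-only regions at 8 of 17. The 9 were CD163, C1QC, CSF1R, MRC1, SIGLEC1, ADGRE1, MERTK, MS4A7 and MPEG1, and the 4 with a lost region were among them. Of the 91 newborn liver peaks linked to the list, 14 (15.4%) were kept liver-spleen regions, beside 2.92% of the newborn liver peaks linked to any gene. With the 57126 top peaks taken from each list, kept regions were linked to 2 and lost regions to 4 of the 17, so the order turned, beside 3.74% and 6.37% of PCGs. At an IDR of 0.05 in newborn liver, which left 237 kept regions linked to 1.05% of PCGs, the kept count was 0 of 17.

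ADGRE1, which encodes the macrophage surface receptor F4/80, had 5 kept regions of 10 newborn liver peaks, within 14.5 kb on chromosome 2 (72297352 to 72311838). The promoter region, 42 bp upstream of the start site, had −log10 p values of 33.0 and 8.25 in newborn liver, 14.3 and 16.8 in spleen, 7.60 and 13.2 in suckling liver and 4.67 and 14.7 in adult liver. The other 4 lay from 5.78 kb upstream to 8.38 kb into the gene, had 11.3 to 15.8 in newborn liver replicate 1 and 3.68 to 5.62 in replicate 2, and of these 2 had no suckling peak. The IDR in newborn liver was 0.149 at the promoter and 0.607 at the other 4, so those 4 were weakly reproducible there. The exonic region of CD163, the scavenger receptor for haptoglobin-bound hemoglobin, was higher, with 47.4 and 13.1 in newborn liver, 26.3 and 32.4 in spleen, 6.50 and 14.5 in suckling liver and 14.7 and 49.7 in adult liver. MERTK, a receptor for the uptake of dying cells, had 2 intronic regions, of which the one 50.8 kb from the start had 21.2 and 7.83 in newborn liver, 21.9 and 19.99 in spleen and 6.91 and 5.59 in adult liver. The MS4A7 region overlapped the promoter of the neighbouring gene MS4A4A and had 47.5 and 22.1 in newborn liver, 14.5 and 25.7 in spleen, 15.0 and 32.3 in suckling liver and 8.85 and 13.2 in adult liver.

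Among myeloid transcription factors, 7 of 16 genes had a kept region, among them SPI1, MAF, IRF8, IRF5, ZEB2 and TFEC, and 5 of 16 a lost one, and 12 of the 182 newborn liver peaks at the list were kept regions (6.59%). MAF, a macrophage and sinusoidal endothelial factor with a long 441 kb locus, had 4 kept and 6 lost regions of 48 newborn liver peaks. Its strongest kept region, in an intron 240 kb from the start, had 39.1 and 12.8 in newborn liver, 4.17 and 8.46 in spleen, 8.60 and 15.4 in suckling liver and 27.4 and 23.8 in adult liver. SPI1 itself had 2 kept regions of 8 newborn liver peaks and no lost region. The SPI1 region 1.33 kb into the gene, in an intron, had 4.09 and 9.42 in newborn liver, 40.03 and 5.38 in spleen and 14.2 and 16.6 in adult liver, so the higher replicate was not the same in newborn liver and spleen. The IDR of this region was 0.607 in newborn liver, 0.663 in spleen and 0.0446 in adult liver, so it was weakly reproducible in both newborn tissues.

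Heme and iron recycling genes had kept regions at 3 of 11 and lost regions at 3 of 11. The kept regions were at SLC48A1, a heme transporter, SLC11A1, the phagosomal metal transporter NRAMP1, and TFRC, the transferrin receptor. The SLC48A1 intron region had 32.4 and 5.55 in newborn liver, 42.7 and 130 in spleen and 88.9 and 90.2 in adult liver, and had no suckling peak. The TFRC region 40.9 kb upstream had 178 and 4.72 in newborn liver, 19.3 and 93.7 in spleen, 12.2 and 56.5 in suckling liver and 75.3 and 89.9 in adult liver. Both were among the stronger listed regions in spleen replicate 2 and in adult liver, and both were low in newborn liver replicate 2.

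Genes of the sinusoidal endothelium had kept regions at 4 of 13, STAB2, CLEC4G, OIT3 and FCGR2B, and a lost region at 1 of 13, STAB1. General endothelial genes had kept regions at 0 of 12 and lost regions at 3 of 12 (PECAM1, ERG and VWF). Over all PCGs the shares were 11.7% for kept and 12.5% for lost regions, and neither list was recounted at other settings. The IDR in newborn liver was 0.607 at the STAB2, OIT3 and both CLEC4G regions, so these were weakly reproducible there, and 0.292 at FCGR2B. In spleen it was 0.663 at STAB2 and OIT3 and 0.0195 at FCGR2B. CLEC4G, a lectin of liver sinusoids, had 2 kept regions of 5 newborn liver peaks, with 20.1 and 31.9 in newborn liver replicate 1 and 5.25 and 4.58 in replicate 2. FCGR2B, the inhibitory Fc receptor, had 11.3 and 12.3 in newborn liver, 15.8 and 36.7 in spleen, 19.5 and 32.0 in suckling liver and 7.36 and 17.4 in adult liver. The intronic STAB2 region, at a hyaluronan scavenger receptor gene, had 20.2 and 4.98 in newborn liver, 4.22 and 7.95 in spleen and 27.5 and 18.8 in adult liver. The sinusoidal endothelium list also had liver-only regions at 8 of 13 genes, more than its kept liver-spleen regions.

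Pan-leukocyte genes had kept regions at 9 of 17 and lost regions at 12 of 17, with 7 genes carrying both. PTPRC, which encodes CD45, had 3 kept regions, and the one at its promoter, 49 bp from the start, had 21.8 and 4.55 in newborn liver, 16.2 and 48.6 in spleen, 7.89 and 17.5 in suckling liver and 15.2 and 30.0 in adult liver. IKZF1, the lymphoid factor Ikaros, had 3 kept and 4 lost regions, and its strongest kept region had 36.8 and 9.98 in newborn liver, 19.1 and 62.0 in spleen and 8.18 and 16.0 in adult liver. FYB, an adaptor protein of T cells and myeloid cells listed under its newer symbol FYB1, had 3 kept and 2 lost regions. The IDR in newborn liver was 0.607 at all 3 kept PTPRC regions. It was 0.111 at the strongest IKZF1 region, 0.163 at the FYB region 30.9 kb from the start and 0.607 at the other kept IKZF1 and FYB regions. Regions at 0.607 were weakly reproducible in newborn liver. T and NK cell genes had kept regions at 6 of 11 (CD3D, CD2, CD247, LCK, TBX21 and PRF1) and lost regions at 2 of 11. The CD3D region, in an exon of the annotation 3.90 kb from the start of this T cell receptor subunit gene, had 16.7 and 8.83 in newborn liver, 33.6 and 52.1 in spleen, 27.0 and 29.8 in suckling liver and 29.8 and 50.4 in adult liver. The CD247 region differed, with 71.9 and 8.11 in newborn liver, 4.11 and 8.93 in spleen and 194 and 98.1 in adult liver. Its IDR in spleen was 0.663. When each list was cut to its 57126 top peaks, T and NK cell genes had kept regions at 2 of 11 and lost regions at 0. Pan-leukocyte genes then had kept regions at 2 of 17 and lost regions at 8 of 17, beside 3.74% kept and 6.37% lost of all PCGs. At an IDR of 0.05 in newborn liver both lists had 0 kept and 0 lost, beside 1.05% and 0.101% of PCGs. By 1 replicate alone each had 0 to 1 kept, beside 1.32% to 1.43% of PCGs. B cell genes had kept regions at 2 of 12 and lost regions at 3 of 12, so for B cell genes the kept count was closer to the 11.7% of all PCGs.

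Pattern recognition and antigen handling genes had kept regions at 4 of 14 and lost regions at 3 of 14. CD86, the costimulatory ligand of antigen-presenting cells, had 3 kept regions, 2 of them at annotated promoters. The stronger CD86 promoter region had 22.8 and 10.04 in newborn liver, 32.2 and 30.4 in spleen, 10.9 and 18.8 in suckling liver and 5.96 and 16.5 in adult liver. Neither of the 2 kept regions of TLR4, the endotoxin receptor, overlapped a suckling peak. The CTSS promoter region, at a lysosomal protease gene of antigen processing, had 30.5 and 5.93 in newborn liver, 29.1 and 44.1 in spleen and 9.96 and 12.4 in adult liver.

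Erythroid genes had more lost than kept regions. Kept regions were linked to 1 of 18 and lost regions to 12 of 18, among them TAL1, SLC4A1, AHSP, NFE2 and LMO2. Of the 131 newborn liver peaks at erythroid genes, 21 (16.0%) were lost liver-spleen regions and 1 (0.763%) was kept, beside 3.06% lost and 2.92% kept among the newborn liver peaks linked to any gene. With an equal number of top peaks taken from each list, erythroid genes had lost regions at 4 of 18 and kept ones at 1 of 18 (5.56%). All PCGs had 6.37% lost and 3.74% kept at that setting, so the kept share of the list was no longer below that of all PCGs.

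Outside the blood and endothelial lists, hepatocyte genes had kept regions at 2 of 14 (TTR and APOB) and liver-only regions at 13 of 14. Lysosome and lipid handling genes had kept regions at 3 of 11, megakaryocyte genes at 1 of 9, granulocyte and progenitor genes at 4 of 12, stellate and stromal genes at 1 of 12, muscle genes at 0 of 11 and housekeeping genes at 2 of 10. At CTSB, a lysosomal protease, the promoter region had 211 and 33.9 in newborn liver, 5.65 and 26.3 in spleen and 192 and 142 in adult liver. The lists are short, and median gene length ranged from 6.22 kb for housekeeping to 43.7 kb for general endothelial genes, beside 20.7 kb for all PCGs.

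**Figure D1:**
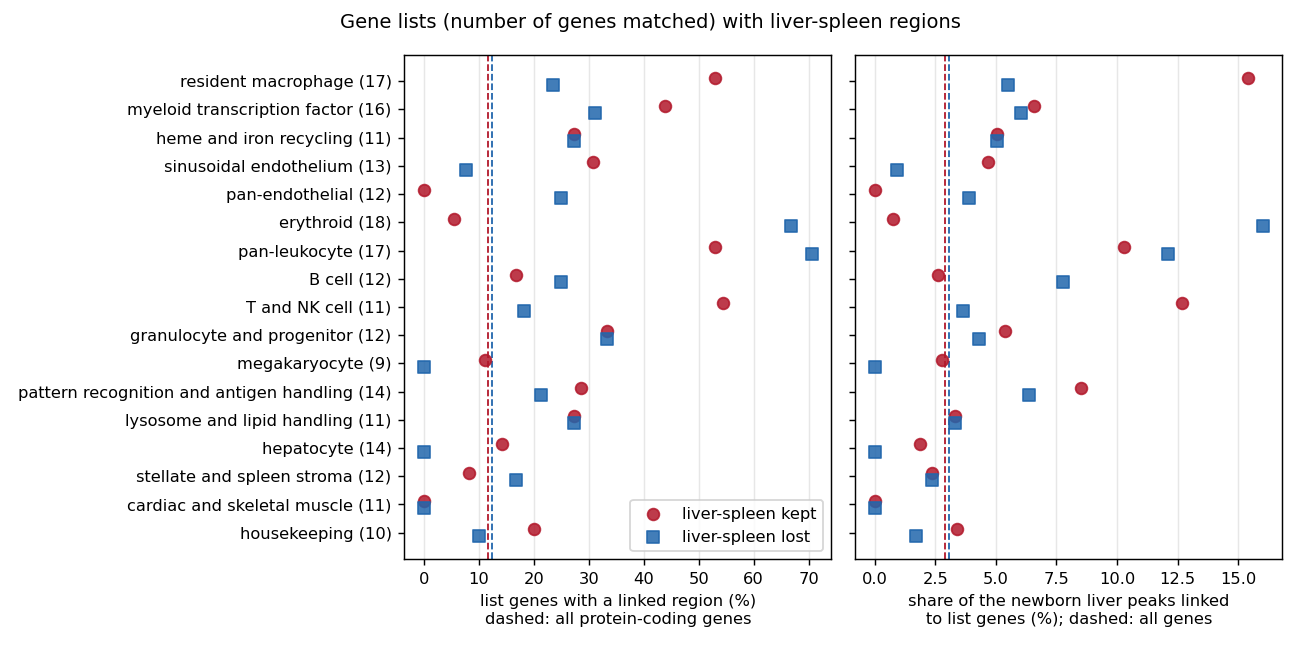
Share of the genes of each list with a linked kept (red) or lost (blue) liver-spleen region (left) and share of all newborn liver peaks linked to the list that were such regions (right), in percent. Dashed lines give the same over all protein-coding genes, and numbers of genes matched stand after the list names. Macrophage and T and NK cell lists stood at 52.9% and 54.5% for kept regions, and the erythroid list at 5.56% for kept and 66.7% for lost regions.

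The PCGs with the most kept regions were partly long genes. RAD51B, a recombination gene of 709 kb, had 10 of its 86 newborn liver peaks as kept regions. FGGY (458 kb), FRMD4A (664 kb), NEDD9 (287 kb) and TBC1D1 (220 kb) had 6 each and VAV3 (378 kb), RIPOR2 (233 kb), ANTXR2 (149 kb) and LOC106510020 (89.1 kb) had 5 each. Of the shorter genes, KMO, the kynurenine 3-monooxygenase of tryptophan breakdown (46.5 kb), had 6 of 14 and FGFR1OP (27.5 kb) 5 of 10. The strongest KMO region had 95.7 and 12.9 in newborn liver, 23.5 and 35.6 in spleen, 17.1 and 19.6 in suckling liver and 17.9 and 34.1 in adult liver. UBAC2 (175 kb) had 7 of 33.

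Runs of 4 or more kept regions with gaps of at most 20 kb, a rule set after the values were seen, numbered 8. The longest run held 7 regions over 45.99 kb at KMO and FH on chromosome 10 (12432368 to 12478355). Runs of 5 lay at ADGRE1 and at FGFR1OP and CCR6, a chemokine receptor gene of lymphocytes and dendritic cells (29.8 kb on chromosome 1). Runs of 4 lay at CD300A and CD300LB, receptors of myeloid cells, at ANKRD55 and IL6ST, at GIMAP2 and GIMAP6, lymphocyte GTPase genes, at CD44, an adhesion receptor, and at 1 place on chromosome 6 with no linked gene.

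By annotation, 7.24% (6.41 to 8.16) of the kept regions overlapped a promoter, 7.60% an exon outside promoters, 46.3% an intron and 38.5% lay between genes. The promoter share was 15.4% for all newborn liver peaks and was higher there than among kept regions on each of the 18 autosomes. It was 4.95% (4.28 to 5.72) for lost, 6.62% (6.07 to 7.21) for liver-kidney and 4.92% (4.61 to 5.25) for liver-only regions. With a narrower promoter, 1 kb upstream to 100 bp downstream, the share of kept regions was 4.59%. The strongest promoter region was at CCDC33 (297 and 83.4 in newborn liver, 36.5 and 20.3 in spleen, 21.3 and 8.75 in adult liver), followed by CTSB and SPATS2L. The 12 strongest also included PIK3R1, a regulatory subunit of PI 3-kinase, with 294 and 29.4 in newborn liver, 4.34 and 16.2 in spleen and 262 and 200 in adult liver. PPARA, the nuclear receptor of fatty acid breakdown, had 174 and 23.6 in newborn liver, 14.7 and 6.78 in spleen and 121 and 81.9 in adult liver. MFSD12 and MS4A4A were among them as well, beside 4 genes known by LOC numbers.

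Peak strength was compared as a description, since presence in these lists chose the regions. In newborn liver the kept regions had medians of 17.3 in replicate 1 and 7.29 in replicate 2, lost regions 8.51 and 5.94, liver-kidney regions 46.1 and 10.6 and liver-only regions 50.4 and 7.95. An IDR of 0.05 or lower was reached by 7.06% (6.24 to 7.98) of kept regions, 0.601% of lost, 26.5% of liver-kidney and 20.04% of liver-only regions. The kept regions were thus weaker in newborn liver than both other kept classes, and they were weaker in adult liver too, with medians of 10.5 and 18.02 against 27.7 and 39.3 for liver-kidney and 30.1 and 39.7 for liver-only regions. In spleen they stood near the middle of the list, at 8.44 and 18.7, or a median percentile of 49.2 in replicate 1 and 55.8 in replicate 2.

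**Figure D2:**
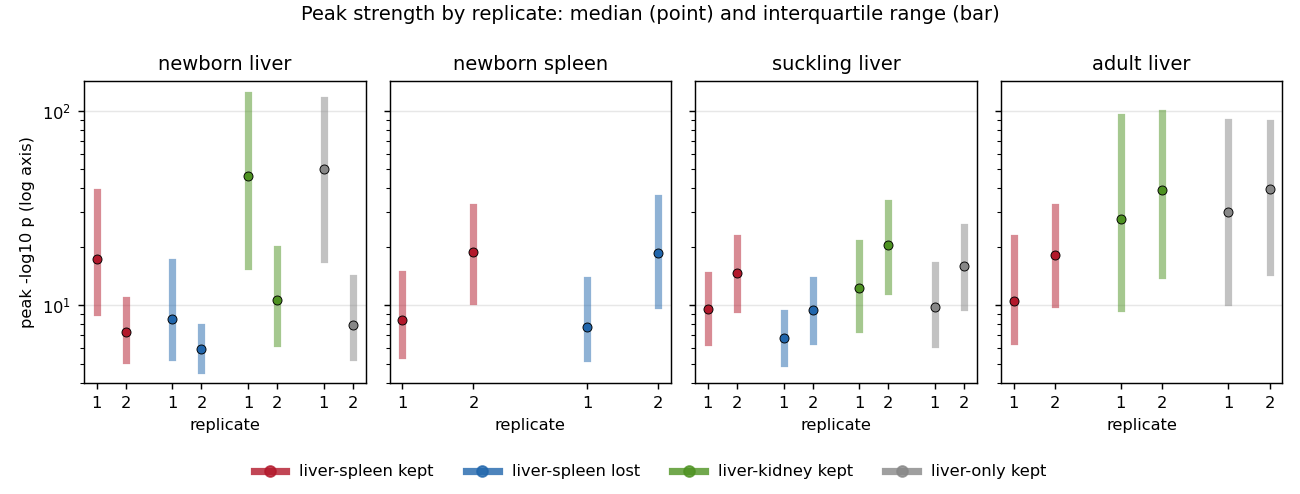
Peak −log10 p in each replicate of newborn liver, newborn spleen, suckling liver and adult liver, on a log axis, for kept and lost liver-spleen, liver-kidney and liver-only regions. Points are medians and bars the interquartile range. Levels of different lists are not on 1 scale, and replicate 1 of newborn liver ran higher than replicate 2 for each class, 17.3 against 7.29 for kept liver-spleen regions.

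The summits lay within 50 bp of the spleen summit in 51.5% (49.8 to 53.2) of kept regions and within 50 bp of the adult liver summit in 63.0% (61.4 to 64.6). For liver-kidney and liver-only regions the adult share was 73.9% (72.8 to 74.9) and 74.2% (73.6 to 74.8). The median overlap was 305 bp with the spleen peak and 317 bp with the adult peak. At the edge of the rule, 48 kept regions overlapped a spleen or adult peak by less than 50 bp, and 48 other peaks missed one by less than 50 bp. The first had newborn liver medians of 11.6 and 6.65 and the second 12.7 and 5.44. A further 37 peaks fell outside for an overlap of less than 50 bp with an excluded list, and 930 kept regions (27.7%) had an excluded peak within 1 kb.

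The suckling liver list was not used in the choice. It overlapped 2878 of 3357 kept regions, or 85.7% (84.5 to 86.9), against 52.1% (50.5 to 53.8) of lost regions, and the kept share was higher on 18 of 18 autosomes. The share was 90.7% (90.03 to 91.4) for liver-kidney regions, 79.7% (79.05 to 80.2) for liver-only regions and 90.2% (90.03 to 90.5) for all newborn liver peaks with an adult overlap. Among newborn liver peaks with no adult overlap it was 47.7% (47.2 to 48.2) over all, 54.2% for liver and kidney and 30.3% for liver alone. A higher suckling share beside an adult peak was thus not particular to liver-spleen regions. The share was higher for stronger peaks. In 4 bins of newborn liver strength set over all newborn liver peaks, kept liver-spleen regions overlapped a suckling peak at 78.0%, 84.4%, 90.3% and 98.4% from weakest to strongest, and liver-kidney regions at 78.0%, 83.9%, 93.8% and 99.3%. Intervals of the 2 classes overlapped in 3 of the bins and not in the third, where liver-kidney regions were higher. Liver-only regions had 63.5%, 72.2%, 86.3% and 97.5%, below kept liver-spleen regions with intervals apart in the first 3 bins.

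Before the adult list divided them, 6849 newborn regions were shared by liver and spleen and no other tissue, and 49.0% (47.8 to 50.2) had an adult liver peak. The same share was 55.8% (54.9 to 56.6) for regions of liver and kidney, 54.2% (53.7 to 54.7) for liver alone, 56.8% (54.4 to 59.1) for liver and heart, 63.6% (61.9 to 65.3) for liver and lung and 66.4% (63.6 to 69.0) for liver and muscle. It was lowest for liver and spleen, with an interval apart from the other 5. Over all newborn liver peaks the share was 65.96% (65.7 to 66.2), and over those found in all 6 tissues 94.6% (94.3 to 94.9). The part of newborn liver peak strength in these shares was not tested.

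Motifs were counted outside promoters, within 100 bp of the newborn liver summit, in 3114 kept regions. The SPI1 consensus was present in 235 (7.55%, 6.67 to 8.53), against 1.35% (1.19 to 1.54) of liver-only regions, 1.72% (1.44 to 2.06) of liver-kidney regions and 2.69% of all newborn liver peaks. The difference from liver-only regions was 6.20 points (5.30 to 7.19), and the kept share was higher on 18 of 18 autosomes. At an IDR of 0.05 in newborn liver the difference was 1.52 points (0.177 to 4.47). Lost regions had 6.99% (6.17 to 7.91), and the difference of 0.557 points had an interval of −0.713 to 1.83. The shares of kept and lost regions thus lay close together and both lay above those of the other classes. With the consensus letters written in reverse order, the difference from liver-only regions was 0.339 points (0.00437 to 0.780).

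FOX:ETS, IRF and RUNX were also more frequent in kept liver-spleen regions than in the liver-kidney and liver-only classes. So were AP1, the MAF half-site, KLF and the general ETS consensus, with intervals of both differences above 0. AP1 had 9.18% in kept, 6.95% in liver-kidney and 7.31% in liver-only regions, and the MAF half-site 6.97%, 5.70% and 4.93%. KLF had 2.57%, 1.81% and 1.48%, and ETS 2.34%, 1.40% and 1.06%. FOX:ETS (AACAGGAA) is a paired site known from endothelial enhancers. Its letters also occur in the IKZF1 motif that the study listed for spleen-specific peaks, and alone they cannot tell such sites apart. The FOX:ETS string was present in 6.39% of kept, 4.43% of lost, 2.88% of liver-kidney and 2.74% of liver-only regions. The paired IRF element had 5.49%, 4.16%, 2.05% and 2.65% in the same order, and RUNX 3.44%, 2.68%, 1.59% and 1.52%. Kept regions exceeded lost ones by 1.96 points (0.857 to 3.08) for FOX:ETS and 1.33 points (0.287 to 2.40) for IRF, while the RUNX difference of 0.755 points had an interval of −0.0879 to 1.61. The general ETS consensus had 2.34% in kept and 2.35% in lost regions, and NFKB 0.546% and 0.422%, with intervals of the difference that held 0. At least one of SPI1, FOX:ETS, RUNX and IRF was present in 20.7% (19.3 to 22.2) of kept, 17.2% of lost, 7.96% of liver-kidney and 8.01% of liver-only regions.

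GATA and KLF motifs differed between kept and lost regions in the other direction. GATA was present in 12.5% (11.4 to 13.7) of kept and 16.5% (15.3 to 17.8) of lost regions, a difference of −4.02 points (−5.73 to −2.30), with kept regions higher on 4 of 18 autosomes. The share was 10.7% in liver-kidney regions, 15.3% in liver-only regions and 11.4% in all newborn liver peaks, from which kept regions differed by 1.06 points (−0.0728 to 2.28). The difference from lost regions was 0.146 points (−2.86 to 3.29) when each list was cut to an equal number of top peaks, and −13.3 and −28.4 points by the peaks of 1 replicate alone. The composite GATA:TAL1 element had 0.771% in kept and 2.44% in lost regions, beside 0.901% of all newborn liver peaks. The KLF motif CCACACCC had 2.57% and 4.73%, beside 2.46%. For both, kept regions thus lay near all newborn liver peaks and lost regions above them. CEBP, shared by myeloid cells and hepatocytes, had 15.1% in kept, 11.2% in lost, 12.3% in liver-kidney and 17.5% in liver-only regions, and kept exceeded lost regions on 18 of 18 autosomes.

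HNF4 and FOX motifs were fewer in kept liver-spleen regions than in the other kept classes. HNF4 (CAAAGTCC) was present in 1.48% (1.11 to 1.96), against 5.35% (4.84 to 5.91) of liver-kidney and 3.78% (3.50 to 4.08) of liver-only regions. FOX (TGTTTAC) had 4.05%, against 5.10% and 7.76%, and 2.29% in lost regions. HNF1 was found in 2 of 3114 kept regions, in 1.05% of liver-kidney regions and in 0.234% of liver-only regions, the last with an interval of the difference of −0.268 to 0.0110. At least one of HNF4, HNF1, FOX and CEBP was present in 19.8% (18.5 to 21.3) of kept, 14.2% of lost, 22.1% of liver-kidney and 26.9% of liver-only regions and 18.3% of all newborn liver peaks. Over the 25 motifs counted, the interval of the difference from liver-only regions lay above 0 for 12, below 0 for 5 and held 0 for 8. Against lost regions these counts were 6, 4 and 15. Mean GC content was 50.0% in kept, 51.9% in lost, 50.4% in liver-kidney and 48.1% in liver-only regions, and its part in these shares was not tested.

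**Figure D3:**
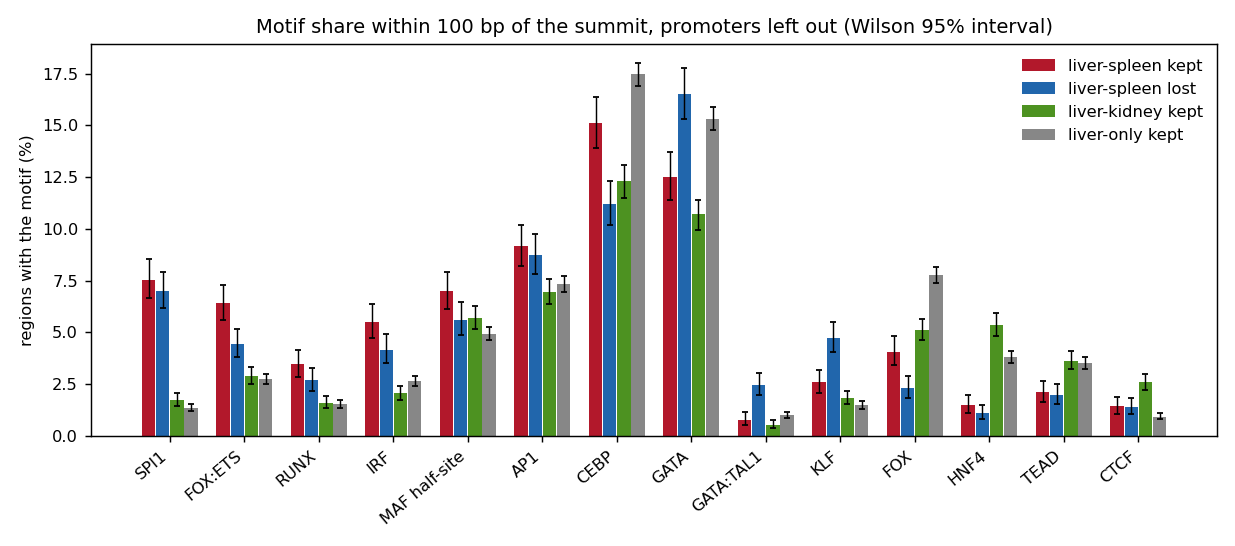
Percent of regions outside promoters with each motif within 100 bp of the newborn liver summit, with Wilson 95% intervals, for the 4 classes. SPI1 stood at 7.55% and 6.99% in kept and lost liver-spleen regions and at 1.72% and 1.35% in the other classes, while HNF4 stood at 1.48% and 1.08% against 5.35% and 3.78%.

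The SPI1 matches were concentrated at the summit. Within the central 100 bp there were 5.43 matches per 100 kept regions, against 0.803 in flanks of the same length about 460 bp away, a ratio of 6.76. The ratio was 5.59 in lost regions, 1.43 in liver-kidney and 1.42 in liver-only regions. RUNX had 2.62 in kept regions and 1.12 in liver-only regions. For GATA the ratio was 1.18 in kept and 1.85 in lost regions, and for HNF4 2.24 in kept regions, 7.15 in liver-kidney and 6.66 in liver-only regions.

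**Figure D4:**
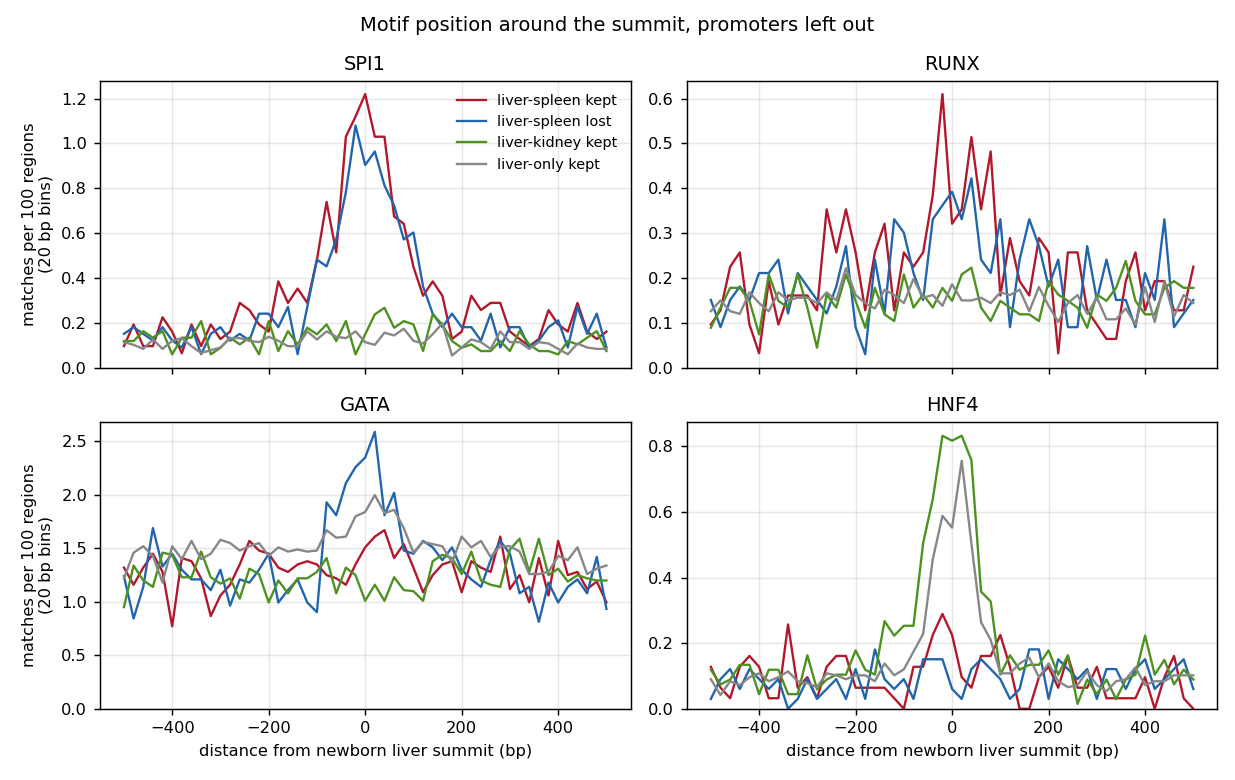
Matches per 100 regions in 20 bp bins against distance from the newborn liver summit, in bp, for SPI1, RUNX, GATA and HNF4 outside promoters. SPI1 matches peaked at the summit in kept and lost liver-spleen regions, with ratios to the flanks of 6.76 and 5.59, and HNF4 matches peaked in liver-kidney and liver-only regions, with 7.15 and 6.66.

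Regions such as those at SPRED2 and CTSB on one side and at PTPRC and CD86 on the other differed in their order of strength, and a last division was made after such values were seen. The kept regions were ordered by percentile in the newborn liver list minus percentile in the spleen list, mean of both replicates, and cut into 4 bins of 839 or 840 regions. The bins had newborn liver medians in replicate 1 of 11.3, 14.3, 16.9 and 49.7 from the most spleen-weighted to the most liver-weighted, and spleen medians of 16.3, 10.2, 6.76 and 5.32. These strengths follow from the ordering. Of the 18 kept regions at pan-leukocyte genes, 16 had a percentile higher in spleen, as had 10 of 14 at macrophage genes. So had 6 of 8 at pattern recognition genes, 5 of 7 at T and NK cell genes and 2092 of all 3357. At myeloid transcription factor genes it was 4 of 12.

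Motifs were not used in the ordering. Of the 15 compared between the outer bins, the interval of the difference lay above 0 for 2, below 0 for 4 and held 0 for 9. SPI1 was present in 8.89% (7.07 to 11.12) of the most spleen-weighted, 10.8% and 6.88% of the middle bins and 3.69% (2.58 to 5.26) of the most liver-weighted bin. The difference between the outer bins was 5.19 points (2.80 to 7.68), and it was 8.56 points with the ranks of replicate 1 alone and 4.48 points with those of replicate 2. FOX ran the other way, from 2.22% to 6.50%, a difference of −4.27 points (−6.39 to −2.27), as did the nuclear receptor half-site CAAGGTCA, from 1.96% to 6.11%, a difference of −4.15 points (−6.20 to −2.22). For both, the sign held with the ranks of either replicate. GATA also had the lower share in the spleen-weighted bin, a difference of −3.81 points (−7.09 to −0.527), but −1.54 points (−4.81 to 1.73) with the ranks of replicate 2. The intervals held 0 for FOX:ETS (−0.497, −2.85 to 1.85) and IRF (0.757, −1.30 to 2.84). For CEBP the difference was −1.28 points (−4.87 to 2.31), and its sign turned between the ranks of replicate 1 (−6.21) and replicate 2 (3.08). HNF4 had 1.18% and 2.17% in the outer bins, with an interval of the difference of −2.38 to 0.332.

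The bins differ in newborn liver strength by construction. The part of that strength in the motif differences between the bins and in the next 2 comparisons was not tested. In adult liver an IDR of 0.05 or lower was reached by 21.5% (18.9 to 24.5) of the most spleen-weighted and 59.4% (56.0 to 62.6) of the most liver-weighted regions. A suckling peak was present at 83.8% (81.2 to 86.1) and 90.1% (87.9 to 91.9). Kept regions with the SPI1 consensus had a suckling peak in 213 of 235, or 90.6% (86.2 to 93.7), and those without it in 84.99% (83.6 to 86.3). The SPI1 consensus was present in 22 of the 454 kept regions outside promoters with no suckling peak (4.85%, 3.22 to 7.23) and in 8.01% (7.04 to 9.10) of those with one. At an IDR of 0.05 in newborn liver, 5 of 220 kept regions outside promoters held it (2.27%, 0.975 to 5.21).

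**Figure D5:**
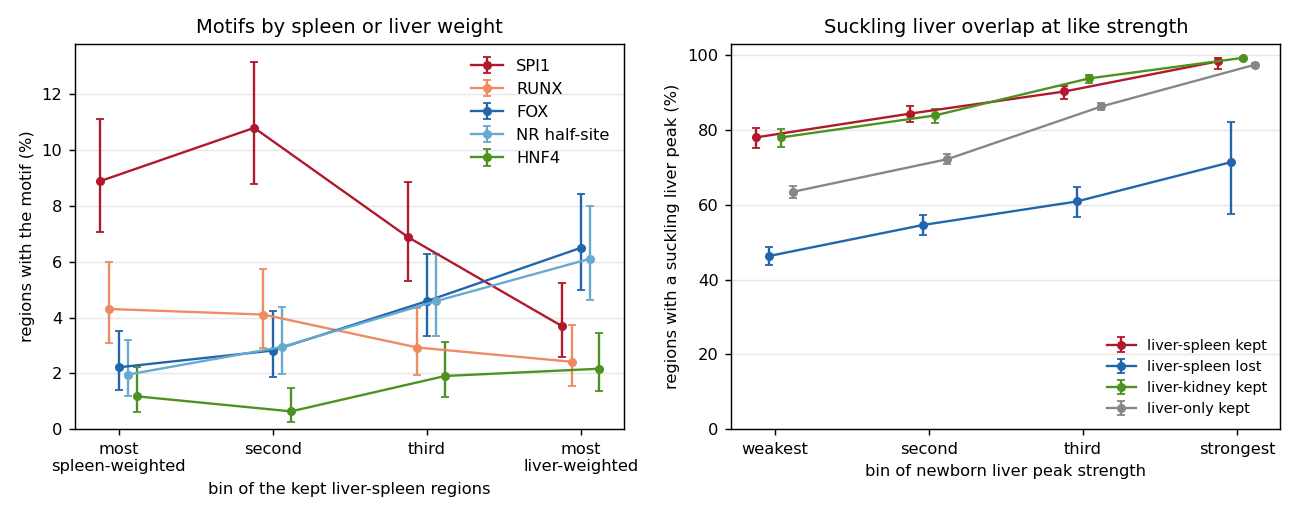
Left, percent of kept liver-spleen regions outside promoters with 5 motifs in 4 bins ordered from spleen-weighted to liver-weighted. Right, percent of 4 classes of region with a suckling liver peak in 4 bins of newborn liver strength. Error bars are Wilson 95% intervals. SPI1 went from 8.89% to 3.69% and FOX from 2.22% to 6.50% across the left panel.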

How the data were processed

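ATAC-seq (Omni-ATAC on nuclei of frozen tissue) was done in 16 libraries, 2 for each of 6 newborn tissues and of suckling and adult liver. Per the study's methods, the authors aligned reads to Sscrofa11.1 (Bowtie2), filtered the alignments for mapping quality, duplicates and mitochondrial origin (SAMtools 1.3.1), called peaks in each replicate with MACS2 and merged the replicates of a group with IDR. The 8 deposited lists give peak positions and, for each replicate, a −log10 p. The deposited score is a reproducibility value, from which IDR was computed (540 or more for an IDR of 0.05), and the lists also hold peaks above that IDR. Depth per sample is not carried by the lists. Peaks whose strength differs between lists are compared by rank within a list. The deposited summit offset of newborn liver set the motif windows.

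Overlaps, gene links, motif matches and intervals were computed in Python (pandas 2.3.3, numpy 2.4.6) from RefSeq genes and sequence of Sscrofa11.1, and the code was tested on simulated data. A peak took the first feature it overlapped, promoters ahead of exons, introns and the 300 bp past a gene. Motifs were fixed consensus strings searched on both strands. Named genes were up to 4 per list with the most linked regions, the 12 genes with the most, and those of the 12 strongest promoter regions. The members, gene lists and motifs were chosen with earlier results of these data known. Alternatives varied the overlap, IDR, distance from excluded lists, number of peaks, replicate, promoter, motif window and gene link. Values of some named genes are not reported here. No significance test was run.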

Additional observations from a re-analysis of the deposited data

Results flagged for a closer look

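Peaks outside chromosomes 1 to 18 entered no comparison, and some of them met the same rule. On chromosome X 55 of 2971 newborn liver peaks met it (1.85%, 1.43 to 2.40), among them peaks linked to VSIG4, a complement receptor of liver macrophages, WAS, a leukocyte actin regulator, and CYSLTR1. On unplaced scaffolds 23 of 1521 did (1.51%, 1.01 to 2.26). Both shares were below the 2.91% (2.81 to 3.005) of chromosomes 1 to 18.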

How the results depend on the processing

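Counting an overlap only when it covered 0.5 of the shorter peak left the number, the suckling and promoter shares, both motif differences and the macrophage count within their limits, as did the gene link settings for the macrophage count (8 with promoter or body alone, 9 within 100 kb). With no excluded peak within 1 kb, only the promoter share moved (6.02%), as it did with a narrow promoter (4.59%). An IDR of 0.05 in newborn liver left 237 regions, a suckling share of 97.05%, an SPI1 difference from liver-only regions of 1.52 points, a GATA difference from lost regions of −13.6 points over 20 lost regions outside promoters, and 0 macrophage, 0 erythroid kept and 0 erythroid lost genes. The same IDR in all 3 required lists left 26 regions, with 96.2% suckling, 3.85% promoter, an SPI1 difference of 7.21 points and 0 macrophage genes, and no GATA difference was computed, fewer than 20 lost regions being left. An equal number of top peaks left 905 regions, with 97.5% suckling, an SPI1 difference of 5.17 points, a reversed GATA difference of 0.146 points, 2 macrophage genes, 4 erythroid genes with a lost region, and 10.8 points between spleen-weighted and liver-weighted regions for SPI1. A window of 50 bp gave an SPI1 difference of 4.15 points, and the reversed letters gave 0.339 points for SPI1 and a reversed sign, 0.932 points, for GATA. Smaller counts follow in part from fewer peaks, and otherwise the cause was not tested.

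Keeping, in each required list, the peaks at or above the median −log10 p of 1 replicate, with the excluded lists whole, gave 318 to 327 regions, suckling shares of 94.03% to 97.2%, promoter shares of 4.72% to 6.12%, SPI1 differences of 4.25 to 9.23 points, GATA differences of −28.4 to −13.3 points, 0 to 1 macrophage genes, 0 erythroid genes with a kept region and 4 to 8 with a lost one. The SPI1 difference between spleen-weighted and liver-weighted regions and the erythroid counts were added after seeing the data. The former was 4.48 to 8.56 points by 1 replicate. No paired analysis was possible because the results come from no test: presence is given for both replicates together, and the sources do not say that a replicate number marks the same animal in liver and spleen. Read depth per library is not in the lists, and the read counts that the study reports for each library were not used. A weak region absent from a list may be a matter of depth, which was not tested.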
